A study of Mus musculus with 23 samples.

Results

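The genes behind the markers that defined the sort of splenic dendritic cells (DCs) were examined: Cd8a and Cd8b1, which encode the alpha and beta chains of CD8, Sirpa, which encodes CD172a, and Cd47, which encodes the ligand of CD172a. These 4 genes were taken by symbol from the 47729 genes of the count table, and all 4 passed the filter on low counts. The study had sorted DC subsets from the spleen to compare their gene expression and function. Cells of wild type Balb/C mice were taken from pools of mice that were untreated (2 pools) or had received TLI (4 pools), an abbreviation that the labels do not spell out and that in this field is used for total lymphoid irradiation. The labels give 4 gates on CD8 and CD172 within the DCs. DC1a was CD8hi CD172-, DC1b was CD8Int CD172+, DC2 was CD8lo CD172hi and DC3 was CD8- CD172lo. RNA-seq of each gate in each pool gave 23 libraries: 2 untreated and 4 TLI libraries of DC1a, of DC1b and of DC3 cells, and 2 untreated and 3 TLI libraries of DC2 cells, where TLI pool 2 is not analysed here. The untreated libraries and TLI pools 1 and 2 belong to batch 1 of the labels, and TLI pools 3 and 4 to batch 2. The age of the mice and the number in a pool are not given in the labels.

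CD8 is best known as the coreceptor of cytotoxic T cells, where an alpha and a beta chain pair, whereas the CD8 of mouse splenic DCs is classically a pair of alpha chains and marks most type 1 classical DCs. CD172a, also called SIRPa, is an inhibitory receptor of myeloid cells with tyrosine motifs in its tail that recruit the phosphatases SHP-1 and SHP-2, and it marks type 2 classical DCs. CD47 is found on nearly all cells and binds CD172a, a contact known as the signal that protects a cell from being engulfed. According to the study's methods the antibodies for sorting bound CD11c, B220, MHCII, CD8a and CD172a. Cd8a and Sirpa are thus the RNA of proteins used in the gates, and Cd8b1 and Cd47 were not gated.

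Library totals ranged from 19256447 to 36997890 counts with a median of 27199618, so that 3 counts, taken as the floor of detection, equalled 0.0811 to 0.156 CPM (counts per 1000000 of the library total). The floor covers counting error only, since amplified reads are not independent molecules. The cDC1 marker list, 10 genes of type 1 classical DCs, summed to 2757 to 4354 CPM in DC1a, 965 to 1875 in DC1b, 298 to 614 in DC2 and 2395 to 3802 in DC3 libraries. Of the cDC2 list, 10 genes of type 2 classical DCs, the sums were 66.0 to 89.5 CPM in DC1a, 596 to 1532 in DC1b, 1628 to 2572 in DC2 and 302 to 446 in DC3 libraries. Erythroid genes summed to 19288 to 133558 CPM in the 7 TLI libraries of batch 1 and to at most 7144 CPM elsewhere. In 2 libraries the RNA of a gated protein stood far from its gate. The library labelled DC1b of TLI pool 4, a CD8Int gate, held 11 counts of Cd8a (0.327 CPM). The library labelled DC2 of TLI pool 3, a CD172hi gate, held Sirpa at 9.22 CPM, below 4 of the 6 DC1b libraries. A further library to be read with care, DC3 of untreated pool 2 with a CD8- gate, held Cd8a at 41.6 CPM. Since these libraries were singled out by their Cd8a or Sirpa itself, values of these genes without them are given below as a description only.

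All 4 genes lie on the forward strand of assembly GRCm38, and none overlaps another annotated gene. Cd8b1 (ENSMUSG00000053044, chr6:71322788-71337494) lies 35932 bases before Cd8a (ENSMUSG00000053977, chr6:71373427-71379173). Sirpa (ENSMUSG00000037902) spans chr2:129592835-129632228 and Cd47 (ENSMUSG00000055447) spans chr16:49800533-49915010. To set a gene restricted to some gates beside a gene present in all of them, the 250 bases before the RefSeq start of Cd8a (chr6:71373177-71373426) and of Cd47 (chr16:49855404-49855653) are shown 5′ to 3′ from the forward strand of GRCm38.p6, with each CG, the dinucleotide that can be methylated, in capitals. Sequences were found for 2 of the 4 genes, and the RefSeq start of Cd47 lies inside the span given above.
Cd8a: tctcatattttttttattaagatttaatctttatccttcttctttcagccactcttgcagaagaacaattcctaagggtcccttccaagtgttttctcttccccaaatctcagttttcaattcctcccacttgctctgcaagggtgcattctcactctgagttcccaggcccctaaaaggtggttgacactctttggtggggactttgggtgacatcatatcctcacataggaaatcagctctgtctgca
Cd47: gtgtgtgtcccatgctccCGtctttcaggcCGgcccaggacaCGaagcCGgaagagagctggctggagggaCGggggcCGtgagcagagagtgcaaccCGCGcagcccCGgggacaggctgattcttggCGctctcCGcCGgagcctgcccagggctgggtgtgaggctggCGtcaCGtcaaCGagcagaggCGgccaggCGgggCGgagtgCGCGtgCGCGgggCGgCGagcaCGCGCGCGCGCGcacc
The Cd8a window held 0 CG and 42.8% G or C, and the Cd47 window held 30 CG and 73.2% G or C. Among 32851 windows of this length the median was 6 CG, 7.87% held as few as the Cd8a window and 5.94% held at least as many as the Cd47 window. These counts describe the letters only.

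Cd8a was high in DC1a, the CD8hi gate, and by mean lowest in DC2 cells. The labels give DC2 as CD8lo, whereas the study describes its DC2 cells as CD8-. The lowest single library was one of DC3 cells, the CD8- gate of the labels, and the difference between DC3 and DC2 cells was not past the threshold, as given below. In DC1a cells Cd8a stood at 468 and 450.3 CPM in untreated pools 1 and 2 and at 599.9, 849.8, 315 and 319 CPM in TLI pools 1 to 4. In DC1b cells it stood at 155 and 390.0 CPM in the untreated pools and at 302, 342, 79.0 and 0.327 CPM in the TLI pools. The DC1b range thus reached into the DC1a range at its upper end and down to the DC2 range through the library of TLI pool 4. In DC2 cells, labelled as CD8lo, Cd8a stood at 0.610 and 0.415 CPM in the untreated pools and at 1.06, 0.572 and 0.276 CPM in TLI pools 1, 3 and 4. In DC3 cells it stood at 0.410 and 41.6 CPM in the untreated pools and at 5.07, 6.46, 2.67 and 0.228 CPM in the TLI pools. All 6 DC1a libraries lay above every DC2 and DC3 library, and DC3 cells, the CD8- gate, overlapped DC2 cells and exceeded them in 3 of the 5 pools with both. DC1a came first and DC1b second in 6 of 6 pools, and the whole order of the labelled CD8 gates was met in 3 of 6. These were TLI pool 2, which has no DC2 library here, TLI pool 4 and untreated pool 1. In TLI pool 4 the DC1b, DC2 and DC3 libraries held 11, 8 and 8 counts of Cd8a. In untreated pool 1 the DC2 and DC3 libraries held 15 and 9 counts. The order at these low counts is not clear of counting error.

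**Figure D1:**
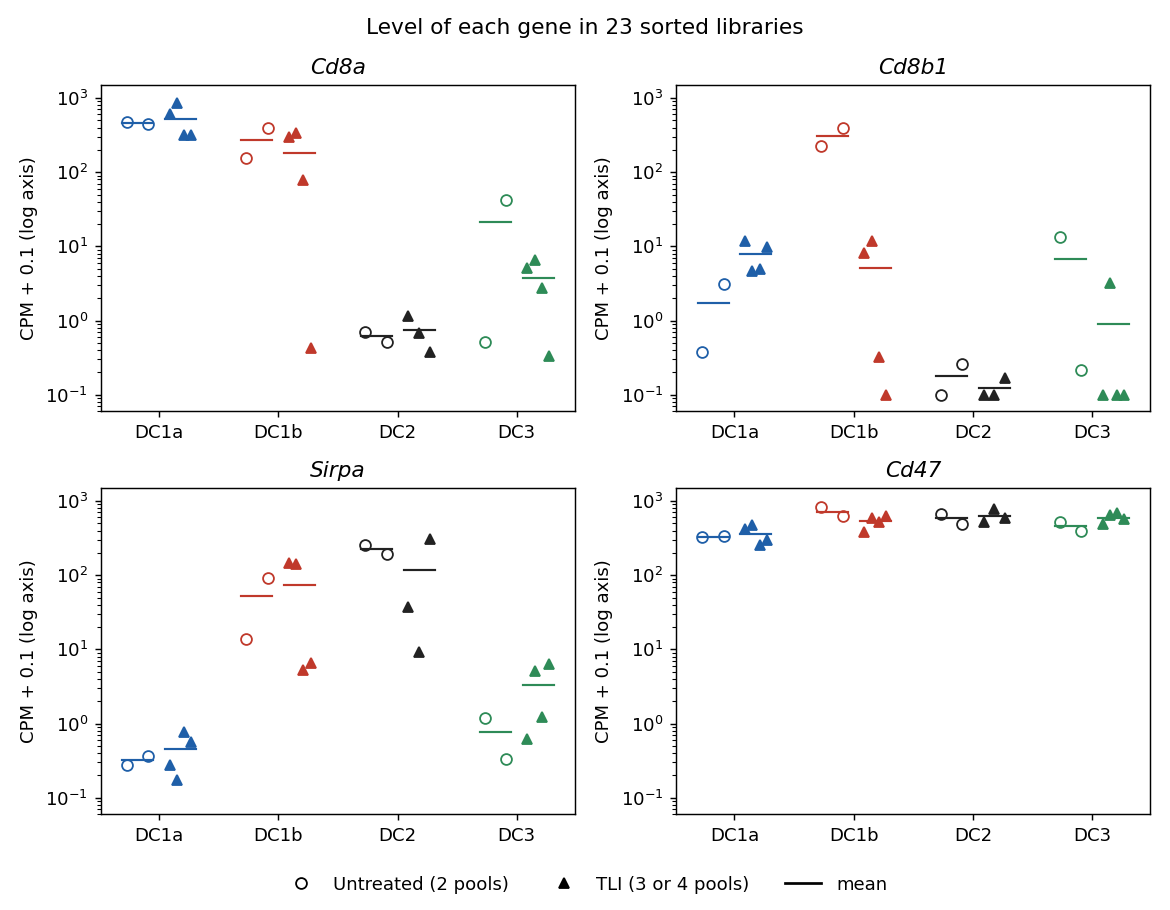
Level of the 4 genes in each of the 23 libraries, as CPM plus 0.1 on a log axis, by subset. Open circles are untreated pools, filled triangles TLI pools and short lines the mean of the group; Cd8a and Sirpa spread over more than 2 orders of magnitude across subsets, Cd8b1 was high in the 2 untreated DC1b libraries, and Cd47 stayed between 251 and 817 CPM.

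Averaged over the pools, Cd8a was 2.36-fold higher in DC1a (500.3 ± 201 CPM, SD, n = 6) than in DC1b cells (212 ± 157 CPM, SD, n = 6) and 852-fold higher than in DC2 cells (0.587 ± 0.297 CPM, SD, n = 5). In a single fit of all libraries, differences were called by the quasi-likelihood test of edgeR where the p, adjusted over 19597 genes by the method of Benjamini and Hochberg, was under 0.05. Cd8a was lower in DC2 than in DC1a cells by this test, with a log2 fold change of -9.85 (SE 1.51, adjusted p = 0.000598), where 7.01% of all genes were called. Among all genes tested 6.96% had DC2 libraries that did not overlap with the DC1a libraries. Cd8a was also lower in DC3 than in DC1a cells, with a log2 fold change of -6.18 (SE 1.24, edgeR adjusted p = 0.0157), where 1.4% of all genes were called and 2.15% did not overlap. Without the DC3 library of untreated pool 1 that difference was -5.69 and missed the threshold (edgeR adjusted p = 0.0850), and without that of pool 2 it was -9.05. Cd8a was lower in DC2 than in DC1b cells, at -8.26 (SE 1.42, edgeR adjusted p = 0.00721), where 0.75% of genes were called. Leaving out the DC2 library of untreated pool 1 or 2 ended that call (edgeR adjusted p = 0.102 and 0.125). None of the 4 genes was free of overlap between DC2 and DC1b or between DC3 and DC1b libraries, where 0.975% and 1.15% of all genes were. The difference between DC1a and DC1b cells, the step from CD8hi to CD8Int, was not past the threshold, at -1.59 for DC1b minus DC1a (SE 0.95, edgeR adjusted p = 0.438). DC3 minus DC1b was -4.59 (SE 1.13, edgeR adjusted p = 0.0560) and was called in DESeq2 (adjusted p = 7.08e-06). It was -4.82 without the DC1b library of TLI pool 4 (edgeR adjusted p = 0.00949), -7.47 without the DC3 library of untreated pool 2 (edgeR adjusted p = 0.0397) and -4.81 without the 2 libraries that went against their gate. DC3 minus DC2 was 3.67 (SE 1.13, edgeR adjusted p = 0.0916; DESeq2 adjusted p = 0.00106). It was 0.80 without the DC3 library of untreated pool 2 (edgeR adjusted p = 0.872), 4.16 without that of pool 1 (edgeR adjusted p = 0.0462), 3.71 without the DC1b library of TLI pool 4 (edgeR adjusted p = 0.0220) and 3.89 without the 2 libraries against their gate. Libraries left out for their own Cd8a level set these values in part, and no call is drawn from them.

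Within a treatment, Cd8a was lower in DC2 than in DC1a cells in untreated mice (log2 fold change -9.99, edgeR adjusted p = 0.0265, where 1.91% of genes were called) and in TLI mice (-9.71, edgeR adjusted p = 0.00442, where 3.4% were called). In TLI mice it was also lower in DC3 than in DC1a cells (-7.69, edgeR adjusted p = 0.0121, where 0.75% of genes were called) and lower in DC3 than in DC1b cells (-5.54, edgeR adjusted p = 0.0473, where 1.11% were called). With the pool as a block the last value was -5.49 and missed the threshold (edgeR adjusted p = 0.0783), as it did in 20 of the 23 fits that left out 1 library (highest adjusted p 0.144). Leaving out any of the 4 untreated libraries of DC1a and DC2 ended the untreated call for DC2 minus DC1a (edgeR adjusted p up to 0.265), and leaving out the DC3 library of TLI pool 1 ended that for DC3 minus DC1a (edgeR adjusted p = 0.0520). In untreated mice the values for DC3 minus DC1a and DC3 minus DC1b were -4.67 (edgeR adjusted p = 0.567, where 0.184% of genes were called) and -3.65 (edgeR adjusted p = 0.576, where 0.393% were called). They rest on 2 unlike DC3 libraries, and ran from -10.42 to -3.69 and from -9.39 to -2.66 when 1 library was left out. DESeq2 called the first (adjusted p = 0.0310). The differences of these 2 values between the treatments were not past the threshold (edgeR adjusted p = 1 and 0.849).

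Cd8b1, the beta chain that no antibody of the sort addressed, was at its highest in DC1b cells of untreated mice. It stood there at 224 CPM (4749 counts) in pool 1 and 393 CPM (9840 counts) in pool 2. In the DC1b libraries of TLI pools 1 to 4 it stood at 8.15, 11.6, 0.222 and 0 CPM. Both untreated DC1b libraries exceeded every one of the other 21 libraries, the highest of which was the DC3 library of untreated pool 1. In DC1a cells Cd8b1 stood at 0.279 and 2.97 CPM in the untreated pools and at 11.7, 4.56, 4.89 and 9.80 CPM in the TLI pools. In DC3 cells it stood at 13.2 and 0.118 CPM in the untreated pools and at 0, 3.14, 0 and 0 CPM in the TLI pools. In DC2 cells no library held more than 3 counts, with 0 and 0.156 CPM in the untreated and 0, 0 and 0.0690 CPM in the TLI pools, so Cd8b1 was not detectable above the floor there. Against that floor the mean of the untreated DC1b libraries was at least 2220-fold higher than that of the untreated DC2 libraries, with 3 counts taken per library.

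None of the 6 differences of Cd8b1 between subsets was past the threshold when both treatments were averaged. DC2 minus DC1a was -6.59 on the log2 scale (SE 1.97, edgeR adjusted p = 0.0532), for which the size of the fold has no firm meaning since DC2 libraries were at or under the floor. DESeq2's Wald test called that difference and those of DC2 and DC3 from DC1b cells, and the edgeR fit without a filter called the first 2. The DC2 libraries all lay below the DC1a libraries, as for 2.02% of all genes. DC1b minus DC1a was 1.99 (SE 1.55, edgeR adjusted p = 0.587), an average of 7.28 in untreated mice (SE 2.80, edgeR adjusted p = 0.345, where 0.837% of genes were called) and -3.31 in TLI mice (SE 2.04, edgeR adjusted p = 0.501). DESeq2 called the untreated value (7.37, adjusted p = 0.0304), and the TLI value was 0.24 within batch 1 and -6.05 within batch 2. The difference between these values, -10.60 (SE 3.47), had an edgeR adjusted p of 0.526 (0.00724 unadjusted), where 0.0357% of genes were called. DESeq2's Wald test called it (-11.21, SE 2.86, adjusted p = 0.00672), while the edgeR alternatives, from -13.35 to -7.04, did not (adjusted p from 0.170 to 0.882). TLI minus untreated was -5.42 in DC1b cells (SE 1.95, edgeR adjusted p = 0.271) and 5.18 in DC1a cells (SE 2.72, edgeR adjusted p = 0.553). In DC1b cells the TLI libraries all lay below the untreated ones, as for 15.7% of all genes, and in DC1a cells they all lay above, as for 4.36%.

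The share of the beta chain among CD8 reads differed as widely. Cd8b1 made up 59.0% and 50.2% of the summed counts of both CD8 genes in untreated DC1b cells of pools 1 and 2. It made up 0.0596% and 0.655% in untreated DC1a cells, 0.534% to 2.98% in DC1a cells of TLI mice and 0% to 3.27% in DC1b cells of TLI mice. DC1b cells of untreated mice thus held 1.44 and 1.01 counts of the beta chain gene for each count of the alpha chain gene, which per kilobase of exon was 3.53 and 2.47 times as much Cd8b1 as Cd8a. In the DC3 library of untreated pool 1 the ratio was 32.1, from 289 counts of Cd8b1 and 9 of Cd8a, while in pool 2 it was 0.00282. The share was higher in DC1b than in DC1a cells in 4 of 6 pools. Paired by pool, the log2 ratio, with 0.5 added to each count, differed by 3.27 ± 5.02 on average (SD, n = 6 pools; exact two-sided sign-flip permutation test, p = 0.156, adjusted over 6 pairs p = 0.469). It was higher in 5 of 6 pools, 1 of them, TLI pool 4, through the added value alone, as the DC1b library there held 0 counts of Cd8b1 and 11 of Cd8a. With these pools no pair of subsets could pass the threshold, since the smallest adjusted p the exact test allows over 6 pairs is 0.0625.

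The same 2 untreated DC1b libraries stood apart in markers of another DC type. The list of plasmacytoid DC markers, 12 genes of the interferon-producing DCs that carry low CD11c, summed to 6419.9 and 9314 CPM in untreated DC1b cells, to 326 to 468 CPM in DC1b cells of TLI mice, and to 67.6 to 403 CPM in the other 17 libraries. Siglech, a receptor that defines these cells, stood at 1159.5 and 1858 CPM in the 2 libraries and at most at 44.4 CPM elsewhere. The part of such cells in the Cd8b1 values was not tested, and in bulk RNA more cells of a type and more RNA per cell cannot be told apart. The study describes its gates as drawn on lineage-negative cells, with B220 among the excluded markers and among the antibodies for sorting. Of T cell genes, Cd3e and Cd3g, 2 chains of the T cell receptor complex, were at 0 in both untreated DC1b libraries, and Cd3d stood at 5.46 and 0 CPM. The list of 13 T cell markers summed to 51.2 and 74.8 CPM there, with 9 and 6 of them at 0. In untreated pools 1 and 2 it summed to 2.68 and 4.09 CPM in DC1a, 26.0 and 0.571 CPM in DC2 and 111 and 62.1 CPM in DC3 cells. Its highest sum was 786 CPM in DC3 cells of TLI pool 1, where Cd8b1 was at 0. The part of T cells in the Cd8b1 values was not tested. In DC1b cells of TLI pools 1 and 2 the T cell sum was 446 and 117 CPM, with Cd3e at 17.8 and 2.93 CPM.

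**Figure D2:**
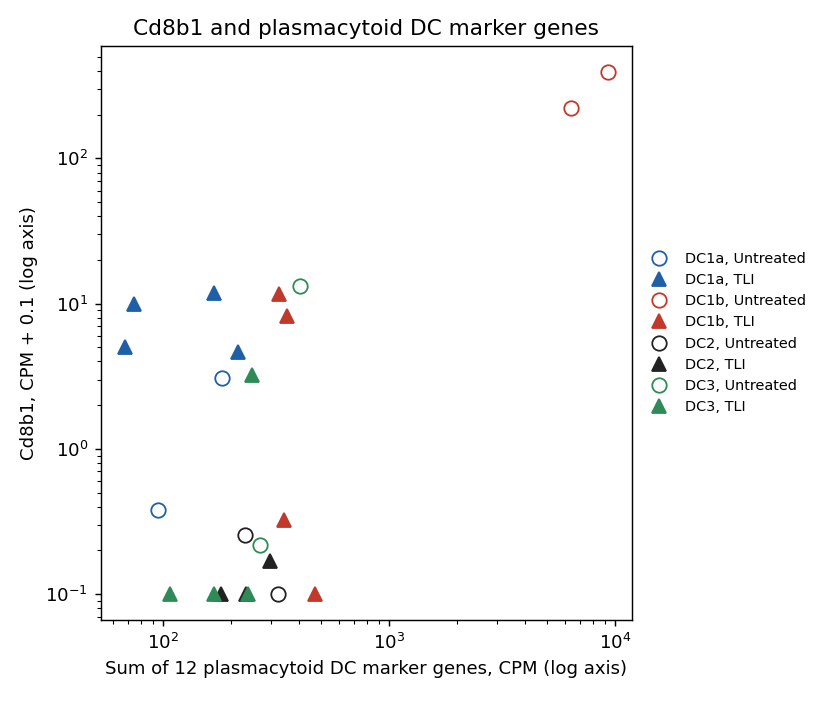
Cd8b1 (CPM plus 0.1) against the summed CPM of 12 plasmacytoid DC marker genes, both on log axes, with 1 point a library; colours are subsets, open circles untreated and filled triangles TLI pools. The 2 untreated DC1b libraries lie alone at the upper right, at 224 and 393 CPM of Cd8b1 and marker sums of 6419.9 and 9314 CPM.

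Sirpa ran against Cd8a at the ends of the gates, highest in DC2 and near the floor in DC1a cells. In DC2 cells it stood at 252 and 196 CPM in untreated pools 1 and 2 and at 36.7, 9.22 and 309 CPM in TLI pools 1, 3 and 4. In DC1b cells it stood at 13.7 and 91.0 CPM in the untreated pools and at 146, 141, 5.10 and 6.55 CPM in the TLI pools. The DC1b libraries of the TLI pools of batch 1 were high and those of batch 2 low, and the DC1b and DC2 ranges overlapped. Sums of 10 monocyte and macrophage markers, cells that carry CD172a as well, were 20286 and 25513 CPM in DC1b cells of TLI pools 1 and 2, 8665 and 7644 CPM in pools 3 and 4, and 3687 and 5770.3 CPM in untreated DC1b cells. Sums of 8 neutrophil markers were 1405.5 to 21014 CPM in the TLI and 1.16 to 20.2 CPM in the untreated DC1b libraries, and the part of either cell type in the Sirpa values was not tested. In DC3 cells Sirpa stood at 1.09 and 0.235 CPM in the untreated pools and at 0.521, 5.02, 1.12 and 6.24 CPM in the TLI pools. In DC1a cells it stood at 0.174 and 0.270 CPM in the untreated pools and at 0.176, 0.0735, 0.676 and 0.462 CPM in the TLI pools. Every DC1a library lay below every DC1b and DC2 library, and every DC3 library lay below every DC2 library. The order DC2, DC1b, DC3, DC1a of the gates was met in 4 of 6 pools, 1 of them without a DC2 library. It was not met in TLI pool 1, where DC1b exceeded DC2 cells. Nor was it met in untreated pool 2, where the DC3 and DC1a libraries held 6 and 7 counts. In TLI pool 4, where it was met, the DC1b and DC3 libraries held 220 and 219 counts. The order at counts this close is not clear of counting error.

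Sirpa was higher in DC1b (67.2 ± 67.2 CPM, SD, n = 6) than in DC1a cells (0.305 ± 0.224 CPM, SD, n = 6), with a log2 fold change of 7.63 (SE 1.5, edgeR adjusted p = 0.00833), where 2.89% of all genes were called and 2.33% did not overlap. Leaving out the DC1a library of untreated pool 1 or 2 ended the call (edgeR adjusted p = 0.140 and 0.120) at values of 7.50 and 7.81. It was higher in DC2 (161 ± 132 CPM, SD, n = 5) than in DC1a cells, at 8.87 (SE 1.57, edgeR adjusted p = 0.00191). DC3 cells (2.37 ± 2.57 CPM, SD, n = 6) had less Sirpa than DC2 cells, at -6.76 (SE 1.41, edgeR adjusted p = 0.0115), where 3.33% of genes were called and 2.72% did not overlap. That call was lost without the DC3 library of untreated pool 1 (edgeR adjusted p = 0.0925) or pool 2 (edgeR adjusted p = 0.138). They also had less than DC1b cells, at -5.52 (SE 1.32, edgeR adjusted p = 0.0494), where 1.33% of genes were called. With the pool as a block this value was -5.61 and missed the threshold (edgeR adjusted p = 0.0868), and it missed it in 18 of the 23 fits that left out 1 library (values -6.22 to -4.52, highest edgeR adjusted p 0.364). DC2 minus DC1b, the step from CD172+ to CD172hi, was 1.24 (SE 1.14, edgeR adjusted p = 0.712), but -0.019 in batch 1 alone and 3.33 without the TLI libraries of batch 1. DC3 minus DC1a, from CD172- to CD172lo, was 2.11 (SE 1.14, edgeR adjusted p = 0.432). Without the 2 libraries that went against their gate the 4 called differences of Sirpa were 8.09, 9.10, -6.90 and -5.89 in the order given, which is a description, since 1 of them was left out for its low Sirpa.

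**Figure D3:**
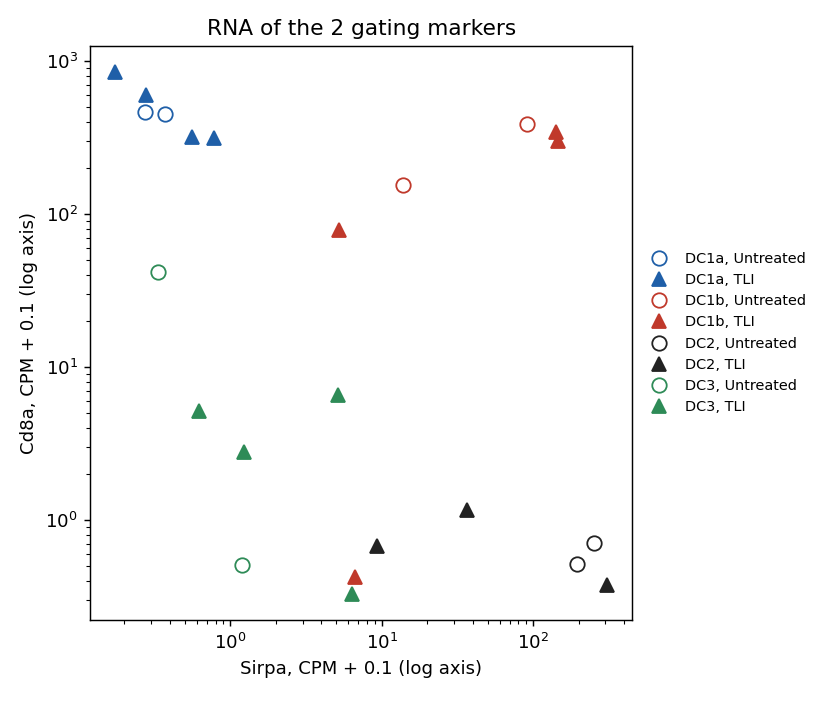
Cd8a against Sirpa in each of the 23 libraries, both as CPM plus 0.1 on log axes, the RNA counterpart of the sort plot of CD8 and CD172; colours are subsets, open circles untreated and filled triangles TLI pools. DC1a libraries lie at the upper left and most DC2 libraries at the lower right, while the DC1b library of TLI pool 4 (Cd8a 0.327, Sirpa 6.55 CPM) lies beside the DC3 library of that pool (Cd8a 0.228, Sirpa 6.24 CPM).

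Within TLI mice Sirpa was higher in DC1b than in DC1a cells, with a log2 fold change of 7.67 (edgeR adjusted p = 0.0274, where 1.42% of genes were called), which missed the threshold with the pool as a block (edgeR adjusted p = 0.0611) and in 5 of the 23 fits that left out 1 library (highest adjusted p 0.129), among them each DC1a library of the TLI pools. The value was 10.11 within batch 1 (edgeR adjusted p = 0.0255) and 3.31 within batch 2 (edgeR adjusted p = 0.453). The untreated value was about as large, 7.59, and was not past the threshold (edgeR adjusted p = 0.150). It was called within batch 1 (7.59, edgeR adjusted p = 0.0350), without the filter (edgeR adjusted p = 0.0151) and in DESeq2 (adjusted p = 7.57e-05). Sirpa was higher in DC2 than in DC1a cells in TLI mice (8.0, edgeR adjusted p = 0.00829) and in untreated mice (9.75, edgeR adjusted p = 0.0457), the latter not with the pool as a block (edgeR adjusted p = 0.0663) and not in 16 of the 23 fits that left out 1 library (highest adjusted p 0.479). The TLI value was 5.26 without the DC2 library of TLI pool 4 and missed the threshold (edgeR adjusted p = 0.0593). The differences between the treatments, 0.08 and -1.75, were not past the threshold (edgeR adjusted p = 1 and 0.927).

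Cd47, the ligand, was present in every library and varied least of the 4 genes. In DC1a cells it stood at 328 and 335 CPM in the untreated pools and at 425, 476, 251 and 297 CPM in the TLI pools. In DC1b cells it stood at 817 and 619 CPM in the untreated pools and at 378, 599, 529 and 626 CPM in the TLI pools. DC1a libraries were low, and they were exceeded by DC1b cells in 5 of 6 pools and by DC3 cells in every pool. In DC2 cells Cd47 stood at 675 and 492 CPM in the untreated pools and at 513, 772 and 582 CPM in the TLI pools. In DC3 cells it stood at 525 and 391 CPM in the untreated pools and at 485, 645, 694 and 566 CPM in the TLI pools. Every DC2 library lay above every DC1a library, as for 4.94% of all genes, while the DC1b, DC2 and DC3 ranges overlapped.

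Cd47 was the lowest in DC1a cells by mean (352 ± 83.5 CPM, SD, n = 6), against 595 ± 143 CPM in DC1b (SD, n = 6), 607 ± 117 CPM in DC2 (SD, n = 5) and 551 ± 110 CPM in DC3 cells (SD, n = 6). The difference DC1b minus DC1a was 0.65 on the log2 scale (SE 0.19) and missed the threshold (edgeR adjusted p = 0.0818). It was past the threshold under DESeq2's Wald test (0.70, adjusted p = 0.00698) and with at least 10 counts required in every library (0.68, edgeR adjusted p = 0.0320). DC2 minus DC1a was 0.55 (SE 0.19, edgeR adjusted p = 0.106), past the threshold in the same 2 alternatives (adjusted p = 0.0375 and 0.0463). The other 4 differences of Cd47 lay between -0.30 and 0.35, with edgeR adjusted p from 0.434 to 0.921.

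**Figure D4:**
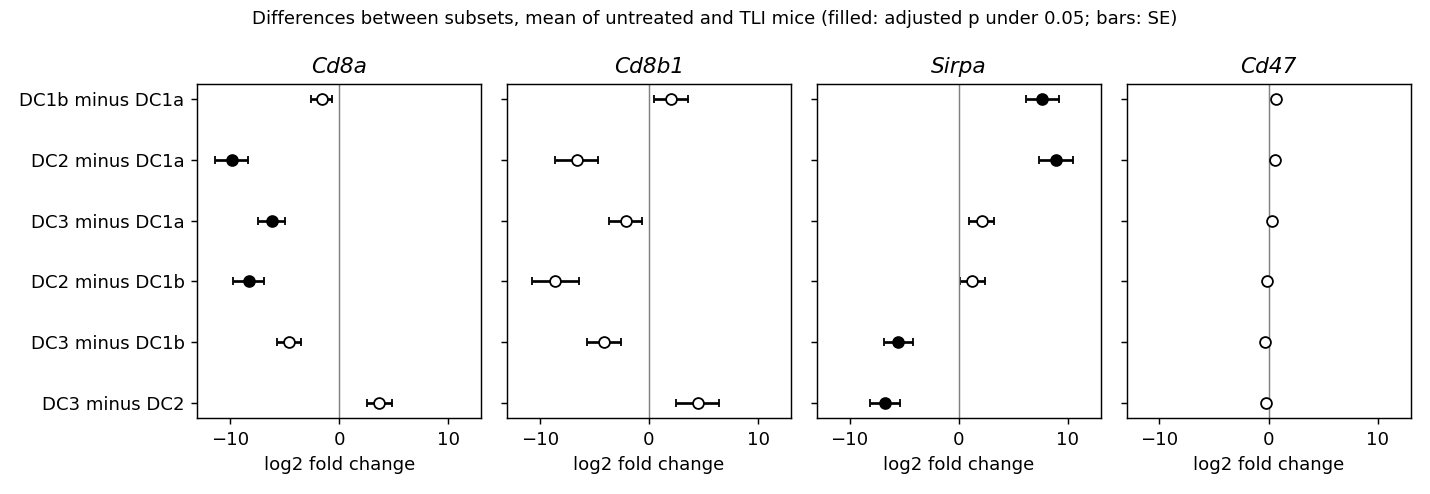
Log2 fold change of each gene for the 6 pairs of subsets, averaged over untreated and TLI mice; bars are standard errors and filled points have an adjusted p under 0.05 in edgeR's quasi-likelihood test. Filled points are limited to Cd8a (3 pairs) and Sirpa (4 pairs), and all points of Cd47 lie close to 0.

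No difference between TLI and untreated mice was past the threshold for any of the 4 genes. Over the mean of the 4 subsets the log2 fold change of TLI minus untreated was 0.24 for Cd8a (SE 0.81), -0.40 for Cd8b1 (SE 1.41), 0.71 for Sirpa (SE 0.98) and 0.18 for Cd47 (SE 0.16), where 2.44% of all genes were called. Across these and the 16 values within subsets edgeR's quasi-likelihood test called 0 of 20, with adjusted p from 0.271 to 1, and 1 value was under 0.05 before adjustment. Within subsets 0.0102% of genes were called in DC1a, 0.413% in DC1b, 0.0612% in DC2 and 0.0255% in DC3 cells. Of the 24 tests of whether TLI changed a difference between subsets edgeR called 0, with 2 under 0.05 before adjustment, both of Cd8b1. Over all genes these tests called 0.0357% for DC1b minus DC1a, 0.0255% for DC2 minus DC1a, 0% for DC3 minus DC1a, 0.122% for DC2 minus DC1b, 0.0204% for DC3 minus DC1b and 0.0357% for DC3 minus DC2. DESeq2's Wald test called none of the 4 means over subsets, and called the TLI effect on DC1b minus DC1a of Cd8b1 (adjusted p = 0.00672). Untreated mice were in batch 1 only, so the batch term rests on the TLI pools. Between TLI pools of batch 2 and batch 1 Cd8a differed by -1.94 (SE 0.85, edgeR adjusted p = 0.126) and Cd8b1 by -3.74 (SE 1.77, edgeR adjusted p = 0.158), where 17.4% of all genes were called. In batch 1 alone the mean values of TLI minus untreated kept their direction for all 4 genes. Without the batch term that of Cd8a was -0.54 and without the TLI libraries of batch 1 it was -1.73, and that of Cd8b1 changed sign in 6 of the 23 fits that left out 1 library (-2.73 to 1.03) and passed the threshold without the TLI libraries of batch 1 (-5.04, edgeR adjusted p = 0.0330), which then compares batch 2 with batch 1.

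Per kilobase of exon, the scale on which genes can be compared, DC1a cells held Cd8a at 138 CPM per kilobase, above Cd47 at 56.1, Cd8b1 at 3.85 and Sirpa at 0.0621. DC1b cells held all 4 genes at 13.7 (Sirpa) to 94.7 CPM per kilobase (Cd47), a mean that for Cd8b1 rests on the untreated pools. DC2 cells held Cd47 at 96.7 and Sirpa at 32.7 CPM per kilobase, and Cd8a at 0.162. DC3 cells, low for both gated proteins, held Cd47 at 87.8 CPM per kilobase and the other 3 genes at 0.483 to 2.59. The DC3 mean of Cd8a rests largely on untreated pool 2 (11.4 CPM per kilobase) and that of Cd8b1 on untreated pool 1 (8.87). By these means RNA of the receptor and of its ligand was found in DC1b and DC2 cells, and that of the ligand with little Sirpa in DC1a and DC3 cells. The Sirpa means cover unlike libraries. In DC1b cells of TLI pools 3 and 4 Sirpa stood at 5.10 and 6.55 CPM, near DC3 cells of TLI pools 2 and 4 at 5.02 and 6.24 CPM. DC3 cells were gated as CD172lo and DC1a cells as CD172-, so low RNA does not mean that the protein was absent.

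The partners of SIRPa and CD47 were described by a list of 17 genes, from phosphatases and adaptors of the receptor to integrins and the related SIRPb receptors. With both treatments averaged, edgeR's test called 7 of 17 higher and 0 lower in DC1b than in DC1a cells, beside 1.89% of all genes higher, with a median log2 fold change of 1.59 beside 0.05 over all genes. In DC2 against DC1a cells 8 of 17 were higher and 0 lower, beside 3.68% of all genes higher, with a median of 1.46 beside 0.08. Sirpb1a, Sirpb1b and Sirpb1c, activating relatives of Sirpa, led the list in DC2 minus DC1a at 9.30, 9.52 and 9.41 (edgeR adjusted p = 2.67e-05, 7.96e-05 and 0.000101). Their copies are nearly alike, so the split of reads among them is uncertain, and they are not independent members in the counts of this list. Itgb3, the beta3 chain of an integrin that associates with CD47, was higher in DC1b than in DC1a cells by 9.34 (edgeR adjusted p = 0.0114) from low levels, at most 20.9 CPM. Against DC1b and against DC2 cells, DC3 cells were lower for 5 genes each and higher for 0, beside 0.975% and 1.93% of all genes lower, in both cases Sirpb1a, Sirpb1b, Sirpb1c, the adaptor Fyb and the signalling adaptor Tyrobp. In DC3 against DC1a cells 2 were higher, Itgb3 and the kinase Ptk2b, beside 0.714% of all genes higher, and none of 17 was called between DC1b and DC2 cells. Fyb, Tyrobp and Ptk2b were named after their values were seen. The list of monocyte and macrophage markers moved alike, with 5 of 10 higher in DC1b and in DC2 than in DC1a cells (medians 2.91 and 2.42). In DC3 cells 4 of 10 were lower than in DC1b and than in DC2 cells, and 0 went the other way in these pairs. The part of such cells in the values of the 17 genes was not tested.

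The list of CD8 signalling and of factors that act on the Cd8 genes held 14 genes, of which 13 were tested. None was called by edgeR's test between DC1b and DC1a cells or between DC2 and DC1b cells, where 2.89% and 0.75% of all genes were. In DC2 against DC1a cells 2 of 13 were higher, beside 3.68% of all genes, the phosphatase gene Ptprc (CD45) at 2.09 (SE 0.37, edgeR adjusted p = 0.00205) and Satb1, a chromatin organiser, at 1.89 (SE 0.53, edgeR adjusted p = 0.0401). In DC3 cells B2m, the light chain of the MHC class I molecules that CD8 binds, was lower than in DC1b cells (-1.65, SE 0.31, edgeR adjusted p = 0.0105), than in DC1a cells (-1.35, edgeR adjusted p = 0.0403) and than in DC2 cells (-1.54, edgeR adjusted p = 0.0110). Ptprc was lower in DC3 than in DC2 cells (-1.76, edgeR adjusted p = 0.0122). It also encodes B220 (CD45R), which an antibody of the sort bound, and counts per gene do not separate the forms of CD45. Over all genes 0.975%, 0.689% and 1.93% were lower in DC3 than in DC1b, DC1a and DC2 cells. The medians of the list over the 6 pairs ran from -0.75 to 1.40, beside -0.04 to 0.08 over all genes. For TLI minus untreated over the mean of the subsets 3 of 13 were higher, beside 1.7% of all genes, namely the kinase Lck (5.78, edgeR adjusted p = 0.0270), the adaptor Lat (8.35, edgeR adjusted p = 0.0169) and the transcription factor Gata3 (5.74, edgeR adjusted p = 0.0296), all of which T cells use, and of the SIRPa and CD47 partners 1 of 17 was higher, the G protein subunit Gnai2 (1.27, edgeR adjusted p = 0.00995). These 4 were named after their values were seen. Summed T cell markers were 117 to 786 CPM in the 7 TLI libraries of batch 1, 4.38 to 61.2 CPM in the 8 of batch 2 and 0.571 to 111 CPM in the 8 untreated libraries. The T cell list shares Lck and Bcl11b with the CD8 list, so Lck is set beside a sum that contains it. Sums of natural killer cell markers were 192 to 3973 CPM, 0.241 to 83.7 CPM and 0.116 to 502 CPM in the same libraries. The part of either cell type in these differences was not tested.

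The genes most like each of the 4 were taken by Pearson's r of log2 CPM over the 23 libraries among 10166 genes, as a description; the libraries share pools and the gates. For Cd8a these were Rnaset2b (r = 0.88), Rnaset2a (0.87), Gabarap (0.83), Cd207, the C-type lectin langerin (0.82), and Lad1 (0.81). For Sirpa these were Sirpb1c (r = 0.88), Sirpb1a and Sirpb1b (both 0.87), Ly86 and Ms4a4a (both 0.84). As the split of reads among the Sirpb1 copies is uncertain, they do not stand as separate matches. For Cd8b1 and Cd47 the highest values were lower, with Tmem9 (r = 0.75), Tmem229b and Tmed3 (both 0.73), Pnck (0.72) and the chemokine receptor gene Ccr9 (0.71) for Cd8b1, and Nfam1 and Cyfip1 (both 0.77), Sh3kbp1 and Mis18a (both 0.76) and Degs1 (0.73) for Cd47. Between the 4 genes themselves r was 0.68 for Cd8a with Cd8b1, -0.38 for Cd8a with Sirpa and 0.42 for Sirpa with Cd47.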

How the data were processed

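RNA of sorted spleen cells was amplified with a SMARTseq v4 kit. The authors trimmed reads with Trimmomatic, aligned them with HISAT2 to GRCm38, whose sequence is of another strain than Balb/C, and deposited estimated counts per gene from StringTie, which are not scaled for depth or length. The design had assumed plain read counts; the estimated counts are whole numbers and were used as deposited. GENCODE M21 gave symbols for 47224 of 47729 identifiers and exon lengths, and promoter windows came from RefSeq. CPM is the count per 1000000 of a library's total.

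All 23 libraries were fitted with edgeR 4.0.16 in R 4.3.3 (TMM scaling, filterByExpr, 8 groups and a batch term), with Benjamini-Hochberg adjustment over 19597 genes and a threshold of 0.05. The biological coefficient of variation was 1.08 with 14 residual degrees of freedom. Alternatives were DESeq2 1.42.0, RLE scaling, a fit with every gene, one with genes of 10 or more counts in all libraries, no batch term, the pool as a replicate block, batch 1 or batch 2 only, libraries of a treatment only, and leaving out each library; 2 more were chosen after seeing the data. The fits were also run on simulated data with less spread between libraries than here and no batch, pool or treatment effect. That setting is easier than these data, so the run does not show how well the fits work here. Pools pair the libraries by their labels, and residuals of the 33 same-pool pairs correlated at -0.162 to 0.0673. This cannot decide whether the pairing matters. The residuals were taken after fitting group means and a batch term, which ties them to each other. Those of the 2 untreated pools mirror each other and give the same values. No library was a copy of another. Whether pools were separate experiments is not stated, so p-values measure the spread between these pools. The genes and lists were chosen with earlier results of these data known. Named beside the 4 genes were the 5 most correlated genes of each (mean of at least 5 CPM, prior count 2) and, from the 2 pathway lists, the up to 4 called genes with the largest change.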

Additional observations from a re-analysis of the deposited data

Results flagged for a closer look

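In DC3 cells of TLI mice, Cd8b1 was at 3.14 CPM (85 counts) in pool 2 and at 0 in the other 3 pools, so that its distance to the rest exceeded the limit of Dixon's test for 4 samples. Of 12 such groups of 4 libraries examined 1 was marked in this way. With the other 3 values at 0 the mark follows for any value above 0, so it does not measure how far this value stands out. The usual rate of about 1 mark in 20 by chance does not hold for counts at the floor.

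For Cd8b1 the difference DC1b minus DC1a was positive in both untreated pools and, in TLI mice, negative in 3 of 4 pools, and the fitted difference between the treatments was -10.60 on the log2 scale (SE 3.47). Its p in edgeR's quasi-likelihood test was 0.00724 before and 0.526 after Benjamini-Hochberg adjustment over all genes. DESeq2's Wald test called it (-11.21, adjusted p = 0.00672). The untreated DC1b libraries are the ones with plasmacytoid DC marker sums of 6419.9 and 9314 CPM.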

How the results depend on the processing

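Of 457 values under alternatives other than leaving out a library or pool, 387 were marked as unchanged in direction and side of the threshold. Of 1232 values without 1 library, or for the ratio of Cd8b1 to Cd8a without 1 pool, 1132 were. For that ratio direction was not compared and no pair could pass the threshold, so its values count as unchanged in any case. Among the log2 fold changes 12 signs changed, in each case with neither value past the threshold. All p are adjusted over the genes of the fit; where the cause of a change is not named it was not tested. DESeq2 called more genes than edgeR (1929 against 567 for DC1b minus DC1a, 3273 against 1373 for DC2 minus DC1a, 1557 against 275 for DC3 minus DC1a, 1321 against 147 for DC2 minus DC1b, 1359 against 260 for DC3 minus DC1b, 2299 against 653 for DC3 minus DC2 and 2163 against 478 for TLI). In DESeq2 no call on the 4 genes was lost, and 7 were gained among values averaged over the treatments: Cd47 DC1b minus DC1a 0.70 and DC2 minus DC1a 0.56; Cd8b1 DC2 minus DC1a -6.34, DC2 minus DC1b -8.10 and DC3 minus DC1b -4.27; Cd8a DC3 minus DC1b -4.62 and DC3 minus DC2 3.69. A further 11 were gained, in untreated mice, Cd8a DC3 minus DC1a and DC2 minus DC1b, Cd8b1 DC1b minus DC1a and DC2 minus DC1b, and Sirpa DC1b minus DC1a, DC3 minus DC1b and DC3 minus DC2; in TLI mice, Cd8a DC2 minus DC1b and Sirpa DC3 minus DC1b and DC3 minus DC2; and the TLI effect on Cd8b1 DC1b minus DC1a.

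Without the filter 7 values within a treatment, of Sirpa, Cd8a and Cd8b1, also passed, and of the averaged ones Cd8b1 passed at -6.59 (DC2 minus DC1a) and -8.55 (DC2 minus DC1b), and Cd8a at -4.62 (DC3 minus DC1b) and 3.68 (DC3 minus DC2), and 436 and 251 genes were called for DC3 minus DC1a and DC2 minus DC1b. With at least 10 counts Cd47 passed at 0.68 and 0.57 against DC1a in DC1b and DC2. Without the batch term 306, 702, 122, 88, 150 and 347 genes were called for the 6 pairs and 128 for TLI, and Cd8a changed sign for TLI minus untreated (-0.54). In batch 1 alone 273, 574, 162, 95, 149 and 317 genes were called, and 242 for TLI, and the sign changed for Cd8b1 DC1b minus DC1a in TLI mice (0.24) and Sirpa DC2 minus DC1b (-0.019). With the pool as a replicate block Sirpa DC3 minus DC1b was -5.61 (adjusted p = 0.0868), and beyond this and the 3 calls within a treatment named above no call on the 4 genes changed.

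Chosen after seeing the data, the fit without the TLI libraries of batch 1 gave Cd47 0.95 and 0.85 (DC1b and DC2 minus DC1a, passed), Cd8a -6.33 (DC3 minus DC1a, missed), -7.85 (DC2 minus DC1b, missed) and -1.73 (TLI, sign changed), Sirpa -3.57 (DC3 minus DC1b, missed) and Cd8b1 -5.04 (TLI, passed at adjusted p = 0.0330); TLI then means batch 2 against batch 1, with 2690 genes called. Without the 2 libraries against their gate Cd8a was -4.81 (DC3 minus DC1b) and 3.89 (DC3 minus DC2), which is a description, since these libraries were chosen by Cd8a or Sirpa.

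Leaving out 1 library lowered the genes called by over 1.5 times in 3 or 4 of 23 fits a pair, to 202, 536, 116, 81, 111 and 303 at the least, and in 12 for TLI, to 78. It gave Sirpa 6.64 to 8.06 (DC1b minus DC1a), -6.22 to -4.52 (DC3 minus DC1b) and -7.46 to -5.47 (DC3 minus DC2). Cd8a ran from -9.05 to -5.69 (DC3 minus DC1a), -8.53 to -7.83 (DC2 minus DC1b), -7.47 to -4.10 (DC3 minus DC1b), 0.80 to 4.16 (DC3 minus DC2) and -0.0027 to 1.68 (TLI). Cd47 ran from 0.56 to 0.73 (DC1b minus DC1a) and -0.24 to 0.019 (DC2 minus DC1b), and Cd8b1 from -8.86 to -5.33 (DC2 minus DC1a) and -2.73 to 1.03 (TLI). With 2 untreated pools and a floor of 0.0811 to 0.156 CPM, Cd8b1 below the floor in DC2 cells could not be ranked.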
